A study of Drosophila melanogaster with 59 samples.

Results

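The odorant binding protein genes of Drosophila melanogaster were taken here as every gene whose FlyBase symbol begins with Obp and a digit. This rule selected 51 of the 17558 genes in the long RNA tables, and 47 of the 51 had a value above 0 in at least 1 of 8 male head libraries. A gene of the same family under another name, lush, lies outside the rule and is given only for comparison. Odorant binding proteins are small soluble proteins, most of them secreted by support cells into the fluid around sensory neurons, where they bind odorants, pheromones or tastants. Members in the antenna bathe olfactory neurons, others line taste hairs on the mouthparts and legs, and several are made outside sense organs, in the fat body, in glia or in the male reproductive tract, where some are transferred in seminal fluid. The genes arose largely by tandem duplication, so that many lie in small chromosomal clusters.

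The study compared 4 lines in an Oregon-R background, with 2 long RNA libraries each from the heads of adult males aged 4 days. The line w[1118] has a mutant white gene and no transgene. The other 3 lines, Fab2L, Fab2L White* and Fab2L Red*, have the same w[1118] genotype plus the Fab2L transgenic insertion, and they share 1 genotype label, so that White* and Red* are told apart by line name alone. Fab2L carries a mini-white reporter, and White* and Red* are lines derived from it that are named for their eye color. All 4 lines therefore carry the w[1118] allele, and w[1118] is the only group without the insertion. The labels do not say whether the 2 libraries of a line came from separate cultures, so that the p-values below describe only how far these libraries scatter, and that scatter may be technical.

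Expression is given as FPKM, a read level scaled for gene length and library depth. Differences between lines are differences of log2(FPKM + 1), tested with limma over the 11119 genes that exceeded 1 FPKM in 2 or more head libraries, and called at a Benjamini-Hochberg adjusted p below 0.05. Adding 1 understates the change of genes with low FPKM. Of the 51 odorant binding protein genes, 32 passed this filter and 19 were not tested, with values of at most 3.35 FPKM in any head library. A low gene could pass through the lines in which it was higher, so that the tested members are not a fair sample of the low ones. Where a second test is named, it is edgeR or DESeq2 on whole reads worked back from FPKM.

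Head libraries held 13.5 to 36.6 M reads worked back from the deposited values. Fab2L and White* were the shallower lines, at 13.5 to 16.05 M, and w[1118] and Red* the deeper, at 25.2 to 36.6 M, so that line and depth cannot be told apart between a shallower and a deeper line. Defining markers of the head were present, with the rhodopsin gene ninaE between 7379 and 11021 FPKM. One library stood apart: w[1118] replicate 1 held the yolk protein transcripts Yp1, Yp2 and Yp3, made by female fat body, at 110.2, 252 and 263 FPKM, against at most 1.83, 5.69 and 15.99 FPKM in the other 7 libraries. The male-specific RNAs lncRNA:roX1 (736 FPKM) and lncRNA:roX2 (496 FPKM) were present in that library at levels similar to those of the others, which lay between 679.9 and 916 FPKM and between 421 and 545 FPKM. A list of 11 gut genes summed to between 7.18 and 236 FPKM and was highest in both w[1118] libraries and in Red* replicate 1.

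Together the odorant binding protein genes took 0.283 to 0.430% of the summed FPKM of a head library, or 2083 to 3053 FPKM. Of the FPKM of protein-coding genes alone they took 0.794 to 1.01%. The lowest sum was that of Red* replicate 1 and the highest that of w[1118] replicate 2. Expression was concentrated in few genes, and the 6 with the highest means held 68.0 to 78.7% of the family's sum in each library. By mean over the 8 libraries, 9 genes stood at 100 FPKM or more, 5 between 10 and 100, 15 between 1 and 10, and 18 above 0 and below 1. The remaining 4, Obp47b, Obp50b, Obp50c and Obp57d, were listed at 0 in all 8. Each of these 4 overlaps another annotated gene (CG7741 for Obp47b, each other for Obp50b and Obp50c, and Cpr57A for Obp57d), and how reads in such overlaps were counted is not given in the sources used here.

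**Figure D1:**
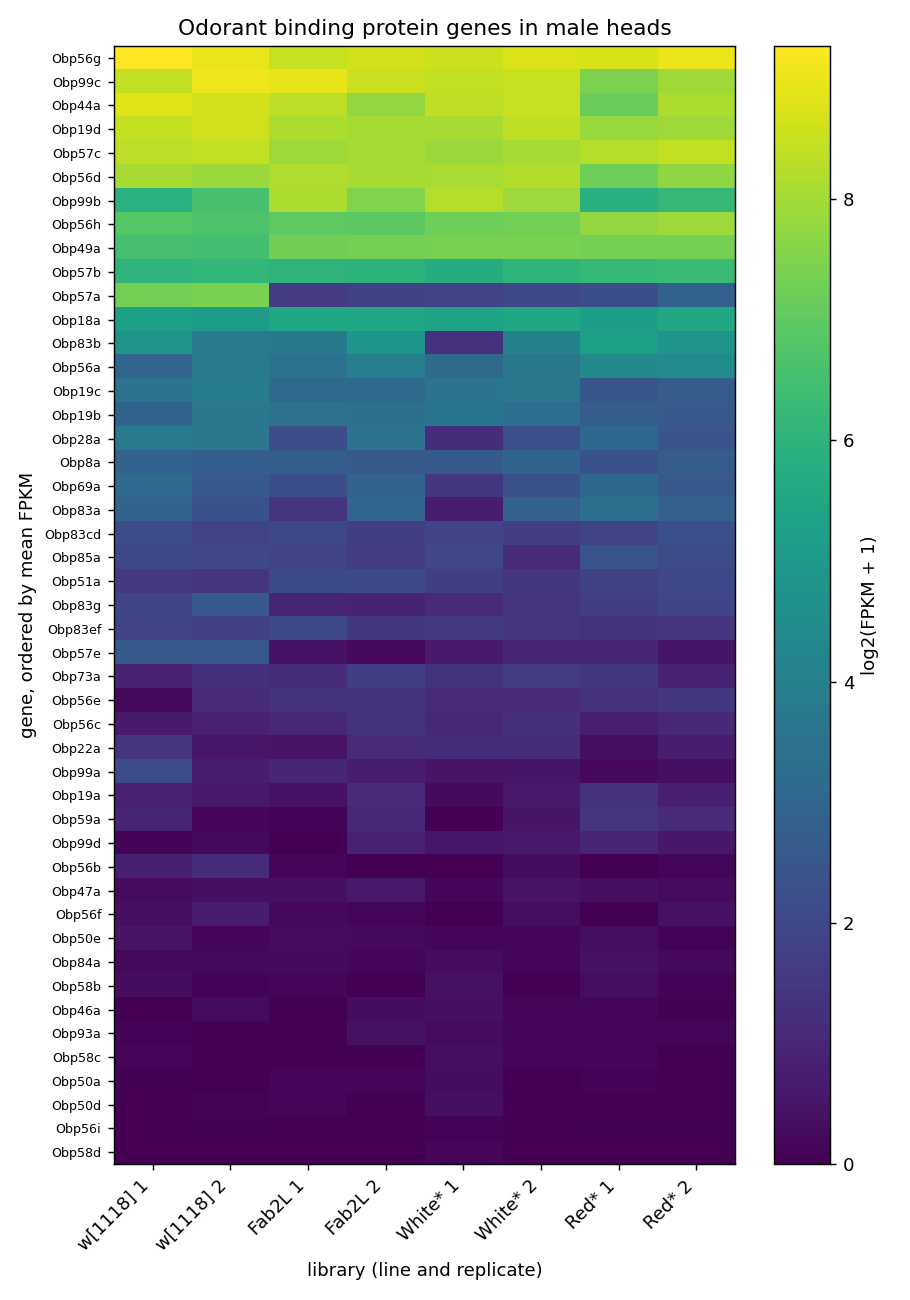
Heat map of log2(FPKM + 1) for the 47 odorant binding protein genes above 0, with genes in rows ordered by mean FPKM and the 8 male head libraries in columns by line and replicate. Obp57a changes from 156 and 168 FPKM in w[1118] to at most 6.29 FPKM in the other lines, and the middle rows of antennal genes are dark in White* replicate 1.

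The taste genes of the Obp57 cluster on chromosome arm 2R gave the largest difference in the family. Obp57a, expressed in taste hairs, had 156 and 168 FPKM in w[1118], 2.16 and 2.46 in Fab2L, 2.60 and 3.00 in White*, and 3.65 and 6.29 in Red*. Both w[1118] libraries lay far above all 6 libraries that carry the insertion, which lay between 2.16 and 6.29 FPKM. In whole reads this was 2681 and 2450 in w[1118] and between 16 and 134 elsewhere. The difference from w[1118] was -5.62 ± 0.19 (log2, SE; limma adjusted p = 2.3e-05) in Fab2L, -5.42 (1.9e-05) in White* and -4.81 (3.6e-05) in Red*. The mean FPKM in w[1118] was 70.0-fold that in Fab2L, 57.9-fold that in White* and 32.6-fold that in Red*. Of the 3 comparisons among the insertion lines none was called for Obp57a by limma, the largest being Red* against Fab2L at 0.81 (adjusted p = 0.080). DESeq2 on whole reads called Obp57a higher in Red* than in Fab2L (1.13, adjusted p = 0.0092) and than in White* (0.86, 0.039), and edgeR made neither call.

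Obp57e, known from Drosophila species for taste-guided preference for host plant acids, was likewise highest in w[1118], at a far lower level. It had 5.21 and 4.94 FPKM in w[1118], 0.367 and 0.167 in Fab2L, 0.588 and 1.02 in White*, and 0.935 and 0.446 in Red*. The libraries of the insertion lines held only 1 to 10 reads each, and of them only White* replicate 2 exceeded 1 FPKM. Obp57e thus passed the filter through its w[1118] values, so that its test was not independent of that difference. The difference from w[1118] was -2.27 ± 0.20 in Fab2L, -1.76 ± 0.20 in White* and -1.86 ± 0.20 in Red* (log2, SE), with limma adjusted p of 0.0011, 0.0030 and 0.0023.

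The 2 genes beside Obp57a did not share this step. Obp57b ends 13 bp from Obp57a and Obp57c lies 48 bp from Obp57b (Obp57a 2R:20505150-20505758, Obp57b 2R:20504251-20505136, Obp57c 2R:20503584-20504202, dm6). Obp57b, also a taste gene, had 65.0 and 69.3 FPKM in w[1118], 64.5 and 62.9 in Fab2L, 53.0 and 65.8 in White*, and 73.3 and 78.4 in Red*. Its lines lay within a narrow band, with Fab2L lower than w[1118] by 0.07 ± 0.11 (log2, SE; limma adjusted p = 0.77). Obp57c, a taste gene and 1 of the family's most abundant transcripts, had 327 and 343 FPKM in w[1118], 246 and 262 in Fab2L, 234 and 266 in White*, and 302 and 341 in Red*. Both libraries of Fab2L and of White* were below those of w[1118] and Red*, but no comparison of Obp57c was called by limma, the smallest adjusted p being 0.075 for White* against w[1118]. Run on whole reads, DESeq2 called Obp57c lower than in w[1118] in Fab2L (-0.40, adjusted p = 0.016) and in White* (-0.42, 0.0099), and higher in Red* than in White* (0.36, 0.032). The White* call against w[1118] was also made by edgeR (-0.41, adjusted p = 0.047).

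**Figure D2:**
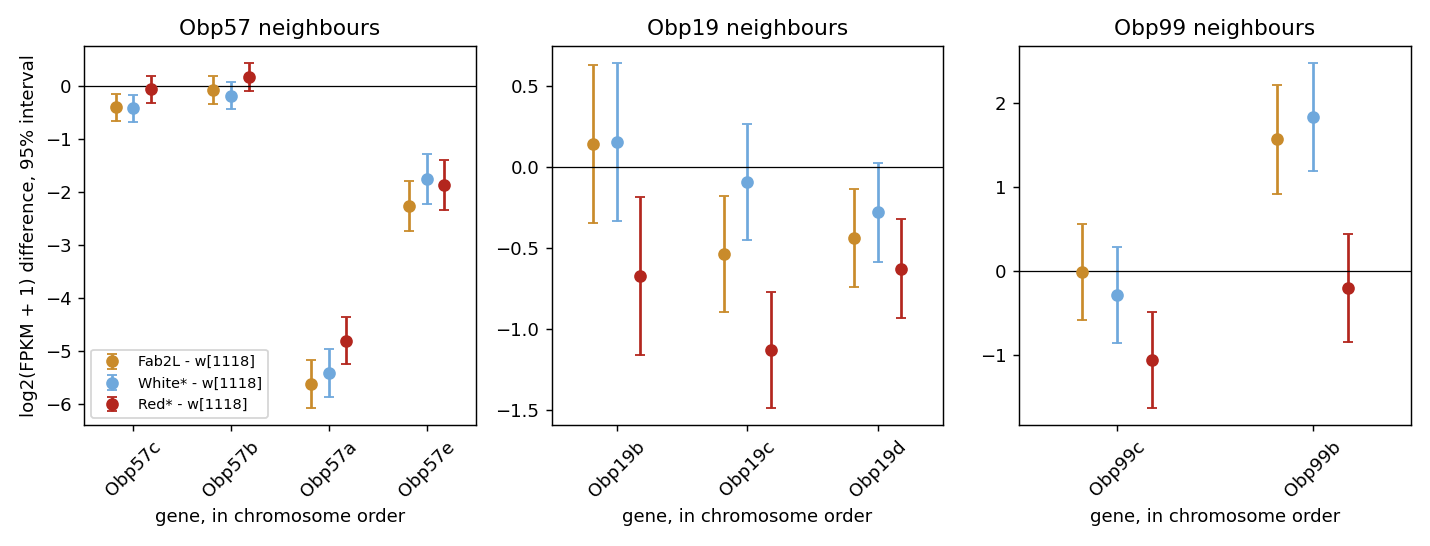
Differences in log2(FPKM + 1) from w[1118] for neighbouring genes of the Obp57, Obp19 and Obp99 groups, with points for Fab2L, White* and Red* and bars for 95% intervals from the limma fit. Obp57a lies at -5.62 to -4.81 while Obp57b, which is 13 bp away, lies near 0.

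Obp49a, a taste gene whose product suppresses responses to sweet substances in the presence of bitter ones, was higher in all 3 insertion lines. It had 90.6 and 87.4 FPKM in w[1118], 151 and 159.7 in Fab2L, 162 and 166 in White*, and 161 and 159.9 in Red*. The 6 insertion libraries were close together and all lay above both w[1118] libraries. The rise over w[1118] was 0.80 ± 0.08 in Fab2L, 0.88 ± 0.08 in White* and 0.84 ± 0.08 in Red* (log2, SE), with limma adjusted p of 0.0015, 9.4e-04 and 0.0012. Obp19b, which is needed in mouthpart hairs for taste responses to amino acids, stood at 8.71 FPKM on average. Its values were lowest in both Red* libraries (5.66 and 4.95 FPKM) and it was not called by limma or edgeR in any comparison. DESeq2 on whole reads called it lower in Red* than in White* (-0.95, adjusted p = 0.024), Fab2L (-0.92, 0.038) and w[1118] (-0.81, 0.046). Against these taste members, a list of 13 taste receptors and channels, of which 6 were tested, held 1 call, ppk29 in Red* against w[1118] (0.52, limma adjusted p = 0.049).

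Among members made outside sense organs, Obp99b differed most between the insertion lines. It is expressed in the fat body of the male head under control of the sex determination pathway. Obp99b had 58.8 and 94.5 FPKM in w[1118], 279 and 179 in Fab2L, 300.2 and 241 in White*, and 58.5 and 71.9 in Red*. The libraries formed a high pair of lines, Fab2L and White*, and a low pair, w[1118] and Red*, without overlap between the pairs. Obp99b was lower in Red* than in White* by 2.04 ± 0.28 and lower than in Fab2L by 1.77 ± 0.28 (log2, SE; limma adjusted p = 0.017 and 0.027), and higher than in w[1118] by 1.57 in Fab2L and 1.84 in White* (0.017 and 0.0095). Red* and w[1118] differed by 0.20 ± 0.28, with a limma adjusted p of 0.68. The Obp99b calls depended on single libraries and, in Red* against Fab2L, on the filter and on whether the fit included the replicate number. Red* against White* missed the threshold without White* replicate 1 (adjusted p = 0.10), White* replicate 2 (0.099) or Red* replicate 1 (0.12), and Red* against Fab2L missed it without Fab2L replicate 1 (0.13), Fab2L replicate 2 (0.056) or Red* replicate 1 (0.15) and with no filter on low values (0.056). Fab2L against w[1118] missed it without w[1118] replicate 1 (0.056), the library with yolk protein transcripts, or Fab2L replicate 1 (0.091), and White* against w[1118] without White* replicate 1 (0.079) or 2 (0.050). The depth of the libraries split in the same way as Obp99b, with Fab2L and White* shallow, and its part in the result was not tested.

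The summed level of other fat body genes had another order than Obp99b, but the sum did not stand for each of these genes. A list of 14 genes of head fat body and hemolymph summed to 2134 and 1819.8 FPKM in w[1118], 1514 and 1269.9 in Fab2L, 959 and 908 in White*, and 876 and 1063 in Red*. The highest sum was that of w[1118] replicate 1, where the fat body transcripts Yp1, Yp2 and Yp3 stood at 110.2, 252 and 263 FPKM. The fat body gene apolpp, picked after its values were seen, had 986 and 1043 FPKM in w[1118], 1305 and 1068 in Fab2L, 817 and 762 in White*, and 750 and 932 in Red*. The male-enriched fat body gene takeout, symbol to, stood at 358 and 574 FPKM in w[1118] and between 20.6 and 35.4 FPKM in the other 6 libraries. Of the 11 genes of this list that were tested, limma called 1 higher and 3 lower in Fab2L than in w[1118], 5 lower in White* and 4 lower in Red* than in w[1118], 2 lower in Red* than in Fab2L, and 0 in the other comparisons among insertion lines. The gene called higher in Fab2L was Apoltp, which encodes a lipoprotein of the hemolymph, at 0.42 (limma adjusted p = 0.021). Apoltp was also lower in Red* than in Fab2L (-0.53, limma adjusted p = 0.023), so that its calls had the directions of Obp99b in these comparisons, and the other gene called lower there was fit (-1.94, 0.0085). In bulk heads, fewer cells of a type and less RNA per cell cannot be told apart. Obp44a, which is expressed in glia and overlaps the gene Pabp2, had 454 and 396 FPKM in w[1118], 324 and 219 in Fab2L, 330.0 and 355 in White*, and 146 and 275 in Red*. Its values were highest in w[1118] and spread widely within Red*, and no comparison was called by limma, with an adjusted p of 0.058 for Red* against w[1118]. There edgeR on whole reads called it lower (-0.999, adjusted p = 0.040), and DESeq2 did not call it. A list of 10 glial genes, at 992 to 1232 FPKM in sum, had no call in any of the 6 comparisons.

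Obp56h, which affects male courtship and the hydrocarbons of the cuticle, was graded over the lines. It had 111 and 103 FPKM in w[1118], 124.7 and 122 in Fab2L, 149 and 155 in White*, and 215 and 239 in Red*. Each line lay above the line before it with no overlap of libraries. Red* was higher than Fab2L by 0.87 ± 0.09, than White* by 0.57 ± 0.09 and than w[1118] by 1.08 ± 0.09 (log2, SE; limma adjusted p = 0.0066, 0.027 and 8.0e-04), and White* was higher than w[1118] by 0.51 (0.019). Fab2L against w[1118] (0.21, limma adjusted p = 0.24) and White* against Fab2L (0.30, 0.44) were not called. The call in Red* against White* was lost without White* replicate 1 (0.12), White* replicate 2 (0.14) or Red* replicate 1 (0.071), that in Red* against Fab2L without Fab2L replicate 1 (0.058) or 2 (0.066), and that in White* against w[1118] without w[1118] replicate 2 (0.13), White* replicate 1 (0.089) or 2 (0.13). Red* against w[1118] was called in each of the 11 alternatives run for it.

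**Figure D3:**
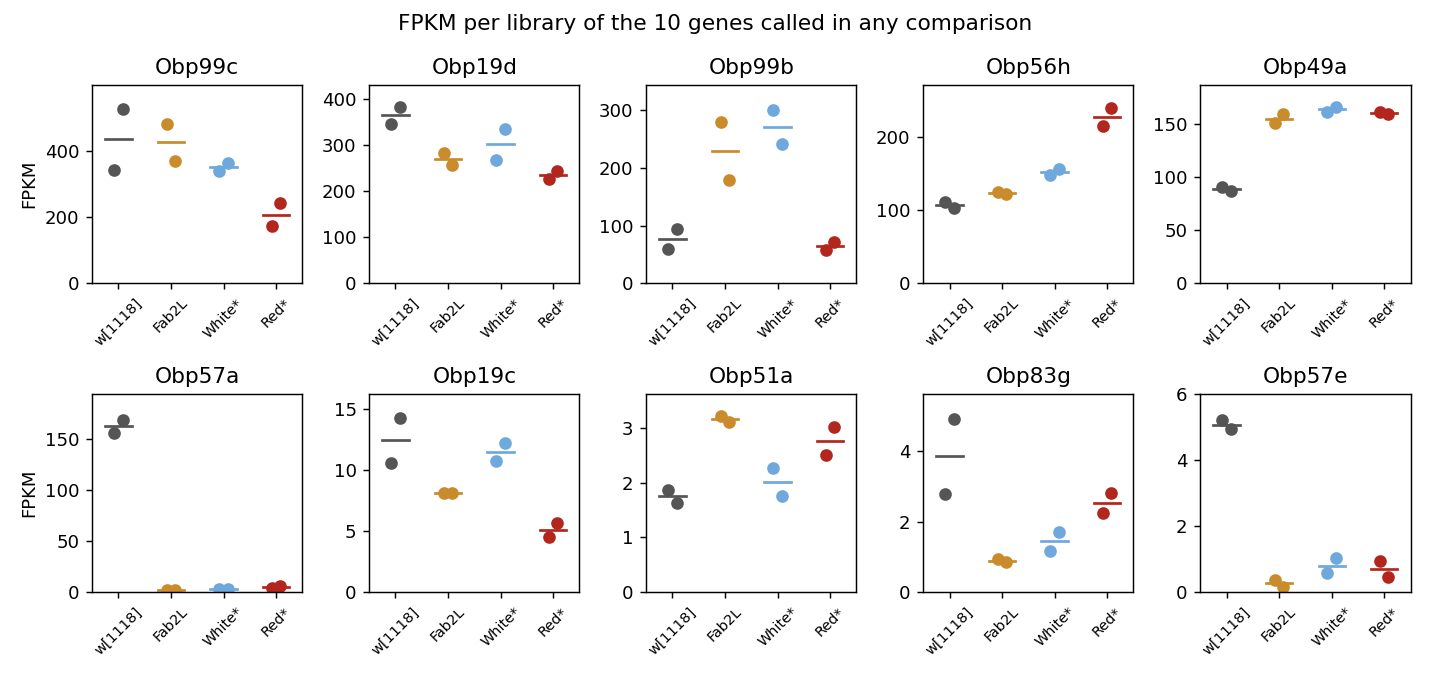
FPKM of the 10 odorant binding protein genes called in at least 1 comparison or by the test over all 4 lines, with 1 point per library, a bar at the mean of the 2 libraries of each line and axes starting at 0. Obp57a and Obp57e are high in w[1118] only, Obp49a is low in w[1118] only, Obp99b is high in Fab2L and White*, and Obp56h is highest in Red* at 215 and 239 FPKM.

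Of the 7 members known as seminal fluid proteins or expressed in the male reproductive tract, Obp56g was the family's most abundant transcript in heads. It had 615 and 512 FPKM in w[1118], 359.7 and 392 in Fab2L, 373 and 442 in White*, and 421 and 510.0 in Red*. Both w[1118] libraries were the highest, but limma called no comparison (adjusted p = 0.069 for Fab2L against w[1118]), while DESeq2 on whole reads called it lower than in w[1118] in Fab2L (-0.58, adjusted p = 8.5e-04) and White* (-0.47, 0.016). The Fab2L call was also made by edgeR (-0.58, adjusted p = 0.036). Markers of the male tract itself were low: a list of 12 accessory gland and ejaculatory genes summed to 10.4 to 15.3 FPKM and a list of 10 testis genes to 0.423 to 1.17 FPKM. The other 6 members of this group were below 7 FPKM in every library. Obp51a, one of them, had 1.88 and 1.64 FPKM in w[1118], 3.22 and 3.11 in Fab2L, 2.28 and 1.75 in White*, and 2.51 and 3.03 in Red*. Fab2L lay above w[1118] by 0.60 ± 0.14 (log2, SE; limma adjusted p = 0.047) on 10 to 46 reads a library, a call that held in 1 of its 11 alternatives. Obp51a lies within the span of hbs, and reads of overlapping genes cannot be told apart where the counting is not stated to use strand.

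Obp19b, Obp19c and Obp19d, neighbours on chromosome X, had their lowest values in Red*. Obp19d, found in support cells of olfactory and taste hairs, had 346 and 383 FPKM in w[1118], 282 and 255 in Fab2L, 268 and 335 in White*, and 227 and 244 in Red*. The Red* libraries were below all others, and Red* was lower than w[1118] by 0.63 ± 0.13 (log2, SE; limma adjusted p = 0.025), which was lost without w[1118] replicate 2 (0.13) or Red* replicate 1 (0.12). DESeq2 on whole reads, but not edgeR, also called Obp19d lower in Fab2L than in w[1118] (-0.44, adjusted p = 0.012). Obp19c, 648 bp from Obp19d, had 10.6 and 14.3 FPKM in w[1118], 8.18 and 8.15 in Fab2L, 10.8 and 12.2 in White*, and 4.56 and 5.70 in Red*. Its Red* libraries were again the lowest, without overlap with any other line. Obp19c was lower in Red* than in w[1118] by 1.13 ± 0.15 and than in White* by 1.03 ± 0.15 (log2, SE; limma adjusted p = 0.0061 and 0.022), and the second call was lost without White* replicate 1 (0.093), White* replicate 2 (0.15) or Red* replicate 1 (0.13). The antennal member of this group, Obp19a, did not show the order and was highest in Red* replicate 1 at 1.49 FPKM.

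The remaining genes that were called or averaged at least 10 FPKM follow, most of them without a described role used here. Obp99c had 342 and 526 FPKM in w[1118], 479.8 and 369.7 in Fab2L, 337 and 362 in White*, and 172 and 243 in Red*. Red* was lowest, and its difference from w[1118] of -1.05 ± 0.24 (log2, SE; limma adjusted p = 0.035) was lost without w[1118] replicate 2 (0.16), without Red* replicate 1 (0.18) and with no filter on low values (0.066). On whole reads Obp99c was also called lower in Red* than in Fab2L by DESeq2 (-1.03, adjusted p = 0.018) and edgeR (-1.03, 0.042). Obp99c overlaps Gycalpha99B. Obp83g had 2.79 and 4.91 FPKM in w[1118], 0.928 and 0.845 in Fab2L, 1.17 and 1.71 in White*, and 2.23 and 2.81 in Red*. Fab2L was lower than w[1118] by 1.33 ± 0.23 (log2, SE; limma adjusted p = 0.016) on 7 reads in each Fab2L library, a call lost without w[1118] replicate 2 (0.065), Fab2L replicate 1 (0.075) or 2 (0.094). Obp83cd and Obp83ef beside it, which overlap each other, stayed between 1.58 and 3.78 FPKM with no call. Obp18a had 37.6 and 33.4 FPKM in w[1118], 44.5 and 44.4 in Fab2L, 40.1 and 45.4 in White*, and 35.1 and 44.7 in Red*, also with no call. Obp56a, at 7.06 and 13.3 FPKM in w[1118], 9.93 and 14.6 in Fab2L, 8.18 and 12.2 in White*, and 19.3 and 21.3 in Red*, was highest in both Red* libraries. Its limma test missed the threshold (Red* against w[1118] 0.99, adjusted p = 0.076), and on whole reads edgeR (1.02, adjusted p = 0.044) and DESeq2 (1.00, 0.0095) called it, the latter also for Red* against White* (1.00, 0.019).

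Counted over the family, Fab2L against w[1118] held 6 calls among the 32 tested members, against a background of 6.63% of all genes tested. Obp49a, Obp99b and Obp51a were higher (3, background 3.51%) and Obp57a, Obp57e and Obp83g lower (3, background 3.12%). White* against w[1118] held 5 calls (background 5.67%), with Obp49a, Obp99b and Obp56h higher (3, background 2.57%) and Obp57a and Obp57e lower (2, background 3.1%). Red* against w[1118] held 7 (background 11.8%), with Obp56h and Obp49a higher (2, background 3.75%) and Obp57a, Obp57e, Obp19c, Obp19d and Obp99c lower (5, background 8.07%). These 3 comparisons share the w[1118] libraries. Among the insertion lines, Red* against White* held 3 calls (background 3.87%), Obp56h higher (1, background 0.845%) and Obp99b and Obp19c lower (2, background 3.02%). Red* against Fab2L held 2 (background 2.25%), Obp56h higher (1, background 0.378%) and Obp99b lower (1, background 1.87%). White* against Fab2L held 0 (background 0.117%), with 0 calls by edgeR (background 0.117%) or DESeq2 (background 0.349%) on whole reads. At an unadjusted limma p below 0.05 it held 5 of the 32 tested members, beside 890 of all 11119 genes tested. The count tests on whole reads took in 33 members with edgeR and 47 with DESeq2. Against w[1118], edgeR called 6 members in Fab2L (background 7.72%), 7 in White* (6.69%) and 10 in Red* (14.0%), and DESeq2 called 8 (5.99%), 8 (5.12%) and 11 (9.3%). For Red* against Fab2L and against White*, edgeR called 3 (2.99%) and 4 (5.56%), and DESeq2 6 (4.0%) and 8 (5.5%). For any difference among the lines, edgeR called 10 (13.0%) and DESeq2 15 (11.8%). The limma test for any difference among the 4 lines called 7 members (background 10.1%), Obp57a, Obp49a, Obp56h, Obp57e, Obp99b, Obp19c and Obp83g. In all, 10 members were called somewhere and 22 were tested without a call. The share of all genes tested that were called somewhere was not counted, so that this total has no background beside it. The median log2 difference over the 32 members was -0.07 in Fab2L, -0.25 in White* and -0.06 in Red* against w[1118], beside -0.012, -0.0060 and -0.00099 over all genes tested, and 0.24 in Red* against White* beside 0.0049. These medians rested on single libraries. That of Fab2L was 0.08 without Fab2L replicate 1 and -0.24 without w[1118] replicate 2, and that of White* was -0.04 without White* replicate 1. The median of Red* against w[1118] was -0.11 and -0.13 without Red* replicate 1 and 2, and that of Red* against White* was 0.14 without White* replicate 1 and 0.11 without Red* replicate 2.

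Several antennal members differed widely between the 2 libraries of a line. Obp83b, known as OS-E and expressed with Obp83a, known as OS-F, in olfactory hairs of the antenna, had 26.6 and 12.9 FPKM in w[1118], 12.3 and 28.4 in Fab2L, 1.49 and 15.7 in White*, and 37.9 and 26.5 in Red*. The lines overlapped, and White* replicate 1 was the lowest of all libraries at 13 reads against 119 in White* replicate 2, a ratio in FPKM of 10.5. Obp83a followed with 6.55 and 4.00 FPKM in w[1118], 1.68 and 7.11 in Fab2L, 0.674 and 6.22 in White*, and 9.62 and 6.11 in Red*. Obp28a, a binding protein of coeloconic and other antennal hairs, had 12.8 and 11.7 FPKM in w[1118], 3.54 and 10.6 in Fab2L, 1.26 and 3.75 in White*, and 7.68 and 4.42 in Red*. In Obp83a and Obp28a as well, White* replicate 1 was the lowest library and no comparison was called by limma, the smallest adjusted p being 0.063 for Obp28a in White* against w[1118]. On whole reads edgeR (-2.30, adjusted p = 0.037) and DESeq2 (-2.29, 0.047) called that fall of Obp28a.

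The same order of libraries ran through most of the antennal members. In Obp83a, Obp83b, Obp69a, Obp28a, Obp59a and Obp19a, 6 of the 7 antennal members tested, the higher library was replicate 1 in w[1118], replicate 2 in Fab2L, replicate 2 in White* and replicate 1 in Red*, and White* replicate 1 was lowest. Obp84a and Obp99a, antennal members below the filter, had another order, and the taste gene Obp49a had the same one. Over all genes tested, 5.17% had this order of libraries and 9.30% were lowest in White* replicate 1. The genes were noticed for this order, so that the counts are a description. Obp69a, which ranged from 1.77 to 8.14 FPKM, is an antennal protein tied to pheromone responses, and Obp59a, from 0 to 1.67 FPKM, is needed for sensing humidity. Obp69a overlaps CG32104 and Obp59a overlaps CG30259. The exception was Obp56d, an abundant antennal and taste gene, which had 263 and 232 FPKM in w[1118], 287 and 264 in Fab2L, 269 and 289 in White*, and 149 and 212 in Red*. Obp56d was lowest in both Red* libraries and was not called by limma (Red* against White* -0.65, adjusted p = 0.073), while DESeq2 on whole reads called it lower there (-0.63, adjusted p = 9.98e-04) and in Red* than in Fab2L (-0.61, 0.0020) or w[1118] (-0.45, 0.024). For Red* against White* edgeR made the same call (-0.63, adjusted p = 0.0497).

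Of 11 antennal genes under other names, picked after their values were seen, 7 had the same higher library in each line (lush, a5, a10, Jhedup, Orco, Ir8a and Or47b) and 4 did not (Snmp1, Ir25a, Or22a and Or67d). The receptor genes Ir8a, Or22a, Or47b and Or67d were below 1 FPKM in every library. lush, which binds the male pheromone cis-vaccenyl acetate, had 3.81 and 1.84 FPKM in w[1118], 1.31 and 3.86 in Fab2L, 0.556 and 1.99 in White*, and 4.87 and 3.13 in Red*. a10, an antennal protein of the chemosensory protein family, had 17.6 and 7.70 FPKM in w[1118], 4.39 and 24.0 in Fab2L, 0.533 and 7.49 in White*, and 28.2 and 16.8 in Red*. The White* libraries of a10 differed 14.1-fold, and a5, another antennal binding protein, ranged from 0.156 FPKM in White* replicate 1 to 8.86 in Red* replicate 1. The olfactory coreceptor gene Orco had its lowest library in w[1118] replicate 2, at 1.44 FPKM. Snmp1, a membrane protein of pheromone-sensing cells, stood at 15.3 to 21.9 FPKM. Limma called none of lush, a5 or a10 in any comparison. In a list of 12 antennal perireceptor genes it called 3 lower in each insertion line than in w[1118], Ugt36E1, Antdh and Est-6, and none of 6 tested odorant receptors and coreceptors in any comparison. How much antenna each head sample held was not measured, and its part in these values was not tested.

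**Figure D4:**
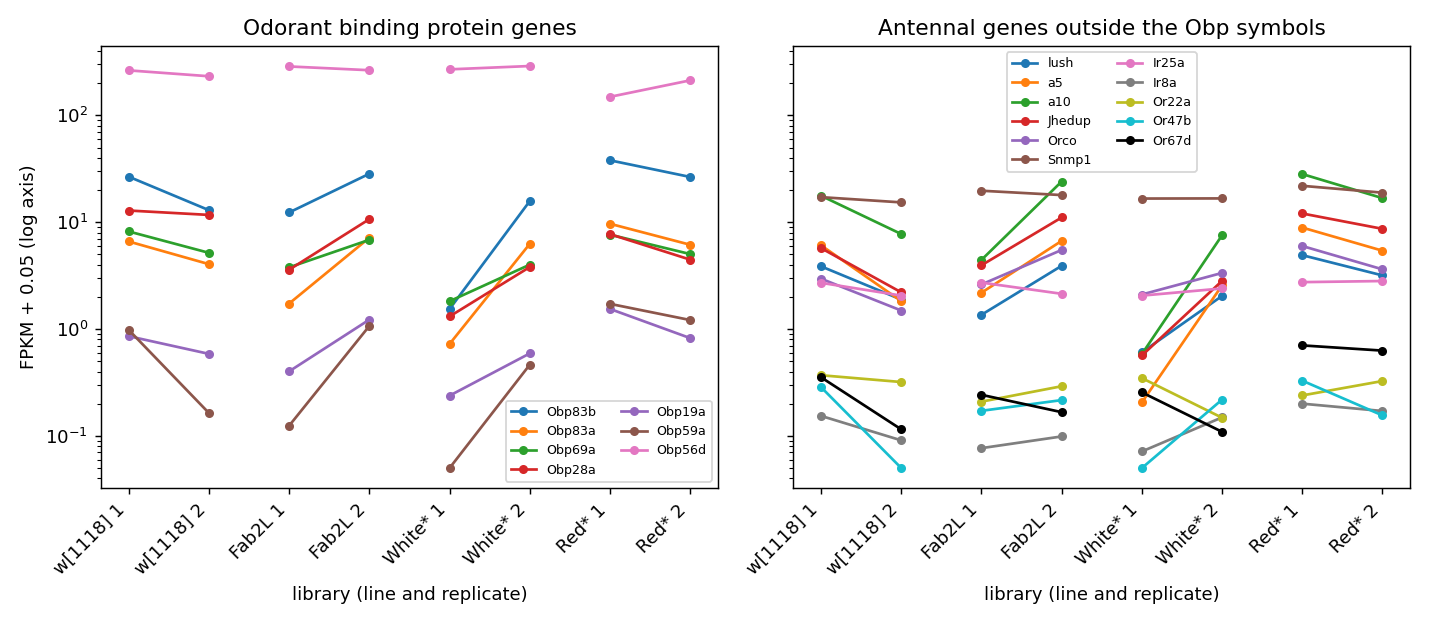
FPKM + 0.05 on a log axis for 7 antennal odorant binding protein genes (left) and 11 antennal genes under other names (right) in the 8 head libraries, with lines joining the 2 libraries of each line. Except for Obp56d, Snmp1, Ir25a, Or22a and Or67d, the plotted genes have the same higher library in each line, with the low point for Obp83b at 1.49 FPKM and for a10 at 0.533 FPKM in White* replicate 1.

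Replicate spread was then counted over the tested members. Of those with a value in both libraries, 12.5% differed more than 2-fold between the libraries of w[1118], 21.9% in Fab2L, 19.4% in White* and 9.38% in Red*, beside 3.05%, 3.24%, 2.59% and 2.68% of all genes tested. In White* these 6 members were Obp19a, Obp28a, Obp69a, Obp83a, Obp83b and Obp85a, and in Fab2L the 7 were Obp19a, Obp22a, Obp28a, Obp57e, Obp59a, Obp83a and Obp83b. The members were not matched to other genes by level, and no test of this difference was made.

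On the chromosomes, 29 members lay on 2R, 12 on 3R, 6 on X, 2 on 2L and 2 on 3L (dm6, positions from RefSeq), and 31 lay within 10 kb of another member. Neighbours differed widely in level. Obp99b (160.4 FPKM on average) lies 1249 bp from Obp99d (0.441 FPKM), and Obp56a (13.2 FPKM) lies 205 bp from Obp56b (0.318 FPKM). Obp56b, which was below the filter, had 0.739 and 1.34 FPKM in w[1118] and between 0 and 0.244 elsewhere, on 13 and 20 reads against 0 to 2. Obp99a, an antennal member also below the filter, was highest in w[1118] replicate 1 at 3.35 FPKM, the library with yolk protein transcripts, against 0.189 to 0.989 in the others. In Red* against w[1118] it was called lower by both edgeR (-2.97, adjusted p = 0.028) and DESeq2 (-3.03, 0.012) on whole reads.

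The authors' deposited lists of sequence variants specific to White* or Red* were searched within 5 kb of each member. The White* list placed 8 of its 2379 SNPs there and the Red* list 1 of 168, and the lists of small deletions and insertions placed 0. All 8 of these White* SNPs lay between 3R:29666729 and 3R:29710432, beside Obp99a, Obp99c or Obp99d, in the group that also holds Obp99b. How much of the genome lies within 5 kb of a member was not counted, so that these counts have no background. In the authors' deposited table, 3 of the White* SNPs were annotated to Obp99c, at 3R:29686289 and 3R:29686391 in an intron and at 3R:29690384 in the promoter. The promoter SNP was listed as heterozygous and both intron SNPs as homozygous. The difference of White* from Fab2L was -0.27 in Obp99c (limma adjusted p = 0.89) and 0.26 in Obp99b (0.91). None of the listed variants lay within 5 kb of Obp57a, Obp57e, Obp49a, Obp99b, Obp56h or Obp19c, and these lists do not cover w[1118].

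Unfertilized eggs of the same 4 lines, which hold no sense organs, gave 8 libraries scaled apart from the heads. There 32 members were above 0 and 19 were listed at 0 in every library. The highest value was 1.16 FPKM, of Obp99b in Red*, and the members summed to between 0.602 and 4.55 FPKM per library. Besides Obp99b, only Obp99a in w[1118] (0.693 FPKM) and Obp99c in w[1118] replicate 2 and both Red* libraries exceeded 0.5 FPKM. The labelled protocol of the egg libraries mentions heads, in conflict with titles and descriptions, which were followed.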

How the data were processed

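Long RNA of male heads and unfertilized eggs was deposited by the authors as FPKM per gene, with STAR 2.5, DESeq2 and build dm6 named per the submitters' processing notes. The counting tool, its strand setting and the annotation release are not given in the sources used here. The deposited FPKM of the 8 head libraries were found to carry median-of-ratios size factors, so that lines were tested only within heads, and egg values are given as levels of their own. The members, gene lists and comparisons were chosen with earlier results of these data known. Members were all genes whose symbol begins with Obp and a digit. Those called anywhere or averaging at least 10 FPKM are given in every library, lush is given beside them, and other genes are named only as called members of a list or where the text says that they were picked after their values were seen. Antennal genes outside the family were picked in that way, as were apolpp and the yolk protein and roX transcripts.

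The test was limma 3.58.1 (R 4.3.3) with an intensity trend on log2(FPKM + 1), all 4 lines in 1 fit with 4 residual degrees of freedom, and Benjamini-Hochberg adjustment over 11119 genes. It was also run on simulated reads with known changes in Red* only, and no result here rests on that run. Whole reads were recovered by the shortest gene length that makes every value whole within 0.001, for 16155 of 16157 genes and all 47 members above 0. For 96.1% of 382 short RNA genes this length was the annotated one, and the reads gave depth and the edgeR 4.0.16 and DESeq2 1.42.0 alternatives. Depth in heads was 13.5 to 36.6 M reads, at which 1 read in a gene of 1 kb is worth 0.0262 to 0.0754 FPKM. Other alternatives were a pseudocount of 0.1, no filter, a replicate block, another scaling, and leaving out each library. A scaling by total reads was added after the data were seen.

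The authors deposited lists of SNPs with a quality score and genotype calls, and lists of small deletions and insertions with a count of reads and a fraction of reads that carry the change. These lists were searched by position only. Gene positions came from RefSeq tables of the dm6 build, matched by symbol for 17215 genes. No protein, promoter or genome sequence was used here. Small RNA libraries were not used.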

Additional observations from a re-analysis of the deposited data

How the results depend on the processing

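No call of a member between lines changed direction. The median over the members did change sign in some settings, for Fab2L against w[1118] and for each comparison among the insertion lines. Of 30 calls of a member in a comparison, 16 held under every alternative run for them, those of Obp57a, Obp57e and Obp49a against w[1118] among them, and the others missed the threshold in the cases named in the report or here. Obp57e had passed the main filter through its w[1118] values. For Red* against Fab2L the count of members called was 2, and it was 1 with no filter on low values, 1 with the replicate block (Obp99b missing at an adjusted p of 0.053) and 6 with DESeq2 on whole reads. DESeq2 gave 8 for Red* against White*, 8 for White* against w[1118], 11 for Red* against w[1118] and 15 for any difference among the lines. Leaving out 1 library at a time gave 3 to 5 members for Fab2L against w[1118] (3 without Fab2L replicate 1), 0 to 3 for Red* against Fab2L (0 without either Fab2L library) and 0 to 5 for Red* against White* (0 without either White* library or Red* replicate 1, 5 without Red* replicate 2). It gave 5 to 9 for Red* against w[1118], 0 for White* against Fab2L, 3 to 6 for White* against w[1118] (3 without either White* library) and 5 to 9 for any difference. Where this left 1 library in a line, that library was taken to vary like the others. Calls over all genes also fell far for Red* against White* without either White* library or Red* replicate 1, and rose without Red* replicate 2. They fell far for Red* against Fab2L without either Fab2L library. In these cases the counts of members moved with those of the whole table. Same-numbered libraries did not pair, with correlations of their deviations between -0.18 and 0.23, and the replicate block gave 5, 0, 1, 4, 6, 8 and 8 members in the order Fab2L against w[1118], White* against Fab2L, Red* against Fab2L, Red* against White*, White* against w[1118], Red* against w[1118] and any difference. Obp83g missed the threshold of the test for any difference with no filter (adjusted p = 0.062) and without any single library except w[1118] replicate 1, and Obp19c without Red* replicate 1 (0.057). Over all genes, Red* against Fab2L gave 250 calls by limma, 642 by DESeq2, 135 with no filter, 27 higher plus 98 lower with the block and 129 with total-read scaling. Red* against White* gave 430, and 883 by DESeq2, 667 by edgeR, 165 with no filter and 250 with the block. White* against Fab2L gave 13, 56 by DESeq2 and 5 with the block, and the test for any difference 1125 and 1900 by DESeq2. With total-read scaling, higher calls made up 343 of 727 for Fab2L against w[1118], 537 of 1209 for Red* against w[1118] and 44 of 129 for Red* against Fab2L, against 390 of 737, 417 of 1314 and 42 of 250. Dividing by median-of-ratios factors changed no call of a member, since the deposited values carry them. With 2 libraries a line and 1 to 66 reads a library in Obp57e, 7 to 73 in Obp83g and 0 to 45 in Obp59a, small differences in low members were not detectable at this depth.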
